A study of Mus musculus with 48 samples.

Results

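Calcium handling in newborn skeletal muscle was followed through 9 genes, chosen by name for their place in the release, storage, uptake and buffering of calcium: Cacna1s, Ryr1, Ryr3, Casq1, Casq2, Atp2a1, Atp2a2, Sln and Pvalb. They are 9 of the 17490 genes in the deposited tables. All 9 were listed for every muscle, and all 9 passed the filter on low counts in every comparison. Muscles of C57BL/6 mice at postnatal day 0 were either homozygous for the Myh3 delta allele (genotype MyH3delta/delta, here KO) or wild type (MyH3+/+, here WT). Myh3 codes for embryonic myosin heavy chain, and the design compares each muscle with and without the intact gene. The 8 groups were KO and WT quadriceps (Quad), KO and WT tibialis anterior (TA), KO and WT gastrocnemius (Gastroc) and KO and WT diaphragm (Dia), with 6 libraries each and 48 in all. The labels do not state which part of Myh3 the allele removes, nor the sex of the animals.

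In a muscle fibre, the voltage sensor in the transverse tubule opens ryanodine receptors of the sarcoplasmic reticulum, and the released calcium starts contraction. Calcium ATPases pump it back, calsequestrins hold it inside the reticulum, and parvalbumin binds it in the cytosol of fast fibres. Several of these proteins exist in fast-fibre and slow-fibre or cardiac forms, and the mixture shifts as muscles mature around birth.

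Levels are counts scaled to library size (CPM), with TMM factors, a correction for RNA composition, over the 48 libraries. Changes are log2 fold changes ± SE from edgeR's quasi-likelihood test, with Benjamini-Hochberg adjusted p over all genes tested and 0.05 as the threshold. Library totals ran from 11.9 M to 24.3 M counts, and the members had between 120 and 238818 counts per library. The count columns carry numbers from 0 to 5 within a group, which the sources do not tie to animals. The p-values therefore measure the spread between these samples, and muscles of 1 animal could not be paired. Counts per gene gave no check of the genotype, since Myh3 was counted at 3137 to 4008 CPM in KO TA and 3748 to 5483 CPM in WT TA. Its medians were 3531 CPM in KO TA and 4561 CPM in WT TA, 4602 CPM in KO Quad and 4700 CPM in WT Quad, 4650 CPM in KO Gastroc and 4363 CPM in WT Gastroc, and 1650 CPM in KO Dia and 1234 CPM in WT Dia. KO columns 0 and 1 stood apart from the other KO libraries in every muscle by their albumin (Alb) RNA, a liver transcript. Alb reached 28.1 and 49.6 CPM in these libraries of KO Quad, and 0.211 to 6.34 CPM in the other 4. In KO Dia the same columns had 3823 and 6259 CPM, and the others 16.1 to 1925 CPM. WT libraries ran from 0.404 to 11.3 CPM in Quad and from 203 to 3232 CPM in Dia. No WT library was left out together with these KO columns. Results that rest on these columns are given with and without them.

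Per kilobase of exon, which allows levels of different genes to be compared, the order in WT muscle was the same in Dia, TA and Quad. Atp2a1, the fast-fibre calcium pump SERCA1, came first, followed by Sln, Casq1, Casq2, Pvalb, Atp2a2, Ryr1, Cacna1s and Ryr3. In WT Dia, Atp2a1 had 3776 ± 377 CPM per kb and Ryr3 had 6.01 ± 0.396 CPM per kb (SD, n = 6 each). In WT Gastroc, Pvalb dropped to the eighth place at 22.2 ± 10.4 CPM per kb. Some neighbours in this order did not differ beyond their spread. Casq2 at 572 ± 59.6 and Casq1 at 551 ± 105 CPM per kb in WT Gastroc overlapped, as did Ryr1 at 72.8 ± 9.48 and Cacna1s at 62.8 ± 7.20 CPM per kb in WT TA. The exonic lengths behind these values, as deposited, ran from 515 bases for Sln, at chr9:53850251-53853844 (mm10, plus strand), to 17682 bases for Ryr3, at chr2:112631355-113217096 (minus strand). Atp2a2 lies at chr5:122442702-122502225 (minus strand), and Ryr1 and Atp2a1 share chromosome 7, at chr7:29003340-29125151 and chr7:126445858-126463108 (both minus strand).

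The promoters of the 4 members whose WT levels differed most in size or direction between muscles are shown. Any part of these sequences in the differences between muscles was not tested. Each is the stretch of 250 bases before a RefSeq transcription start (GRCm38.p6), written 5′ to 3′ on the gene's strand. Capitals mark matches, searched on both strands, to the E-box CANNTG, to which myogenic factors bind, and to the MEF2 consensus, to which the MEF2 factors bind.
Pvalb promoter, chr15:78206401-78206650, minus strand: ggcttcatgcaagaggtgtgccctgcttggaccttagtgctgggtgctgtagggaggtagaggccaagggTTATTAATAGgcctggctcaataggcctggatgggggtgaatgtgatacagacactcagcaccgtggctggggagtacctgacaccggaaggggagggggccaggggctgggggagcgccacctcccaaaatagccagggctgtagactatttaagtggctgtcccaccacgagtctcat
Atp2a1 promoter, chr7:126463074-126463323, minus strand: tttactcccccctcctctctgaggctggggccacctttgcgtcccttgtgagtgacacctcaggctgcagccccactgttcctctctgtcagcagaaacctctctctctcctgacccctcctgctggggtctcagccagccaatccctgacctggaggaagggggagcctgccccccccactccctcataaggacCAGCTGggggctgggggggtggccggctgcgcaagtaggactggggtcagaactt
Casq1 promoter, chr1:172219896-172220145, minus strand: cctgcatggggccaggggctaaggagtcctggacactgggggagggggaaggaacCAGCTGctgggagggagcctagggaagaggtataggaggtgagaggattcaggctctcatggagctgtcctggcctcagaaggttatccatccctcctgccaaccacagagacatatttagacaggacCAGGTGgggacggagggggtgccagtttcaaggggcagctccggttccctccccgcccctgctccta
Casq2 promoter, chr3:102086165-102086414, plus strand: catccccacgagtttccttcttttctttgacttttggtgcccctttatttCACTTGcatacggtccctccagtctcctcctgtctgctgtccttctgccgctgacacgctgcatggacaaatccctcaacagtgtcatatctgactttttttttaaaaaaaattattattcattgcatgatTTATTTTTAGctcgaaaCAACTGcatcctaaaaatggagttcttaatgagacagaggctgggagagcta
Casq2 held 1 MEF2 match, from base -69 to -60 before the start, and 2 E-boxes. Pvalb held 1 MEF2 match, from -180 to -171, and no E-box at this start. Casq1 had 2 E-boxes and Atp2a1 had 1, at -55 to -50. Of 32851 promoters in the RefSeq set, 66.2% held an E-box in these 250 bases and 2.92% held a MEF2 match, so most promoters hold an E-box. Promoter entries were at hand for 6 of the 9 members, 7 entries in all. Of those not shown, a second Pvalb start had 1 E-box and Cacna1s had 2, both without a MEF2 match, and Ryr1 had neither.

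The largest differences among these genes were between WT muscles, and the diaphragm differed from the limb mean. In WT Dia, 8 of the 9 members were higher than the mean of the WT limb muscles and 1, Casq2, was lower. All 9 passed the test, against a background of 57% of 14831 genes called (29.9% higher and 27.2% lower), so most genes of any kind passed. The median log2 difference was 0.63 over the members and 0.00212 over all genes. Against a difference of at least 1.5-fold, the calls of Pvalb, Atp2a1 and Casq2 held, and those of the other 6 were lost (adjusted p = 0.0570 for Atp2a2, edgeR). The limb mean includes WT Gastroc, which was low for most members. By mean CPM, Casq1 in WT Dia was 0.995 times WT Quad, 0.938 times WT TA and 1.78 times WT Gastroc. For Pvalb the ratios were 1.77, 2.06 and 12.3.

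On the release side, Cacna1s, the voltage sensor of the transverse tubule, was 0.63 ± 0.08 higher on the log2 scale in WT Dia (adjusted p = 2.72e-07, edgeR). It had 453, 549 and 684 CPM as lowest, median and highest in WT Dia, against a mean of 364 CPM over the 18 WT limb libraries. These ran from 239 to 457 CPM, so the ranges overlapped slightly. Ryr1, the release channel it opens, was 0.69 ± 0.10 higher (adjusted p = 1.46e-06). Ryr1 ran from 1360 to 2127 CPM in WT Dia, with a median of 1596 CPM, against 640 to 1379 CPM in WT limb libraries, and the ranges overlapped slightly. Ryr3, a second ryanodine receptor known from developing muscle, differed less, by 0.31 ± 0.05 (adjusted p = 1.94e-05), with 92.9, 108 and 112 CPM as lowest, median and highest in WT Dia. The WT limb libraries ran from 73.5 to 99.3 CPM for Ryr3, and the ranges overlapped. The ratio of Ryr1 to Ryr3 per kb had a median of 18.1 in WT Dia, against 16.9 in WT Quad, 15.2 in WT TA and 11.2 in WT Gastroc.

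The 2 calsequestrin genes differed in opposite directions. Casq2, the form of slow fibres and heart, had 900, 1125 and 1207 CPM as lowest, median and highest in WT Dia. In WT limb muscles the lowest library was at 1430 CPM, so no WT Dia library reached the limb range. Casq2 fell by 0.83 ± 0.07 on the log2 scale in WT Dia relative to the limb mean (adjusted p = 6.64e-11). Casq1, the fast-fibre form, had 1571, 1908 and 2217 CPM in WT Dia, overlapping WT Quad and WT TA and above all of WT Gastroc. Its difference of 0.24 ± 0.10 was close to the threshold (adjusted p = 0.0450), and was lost with upper-quartile scaling (0.0701), in a fit of all 48 libraries (0.0637) and in 15 of 24 fits without 1 WT library. Casq1 over Casq2 per kb was accordingly highest in WT Dia, at 2.24 to 2.65 in single libraries, against 0.755 to 1.67 in WT limb libraries.

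Uptake genes were higher in the diaphragm. Atp2a1 had 10974, 13131 and 14602 CPM in WT Dia, above each of the 18 WT limb libraries, of which the highest had 9269 CPM. It was 1.00 ± 0.08 higher on the log2 scale (adjusted p = 3.33e-11). Atp2a2, which codes for SERCA2, the slow-fibre and cardiac pump, was also above every WT limb library, with 659 to 1032 CPM in WT Dia against 454 to 645 CPM, a difference of 0.73 ± 0.07 (adjusted p = 2.25e-09). Sln, which codes for sarcolipin, a small inhibitor of these pumps, had 838 to 1154 CPM in WT Dia against 555 to 772 CPM in WT limb muscles (0.59 ± 0.07, adjusted p = 2.97e-08). The groups did not overlap for these 3 genes or for Casq2, and overlapped for Cacna1s, Ryr1, Ryr3, Casq1 and Pvalb. The share of all genes without overlap was not counted, and 57% of genes passed the test there, so non-overlap does not set these genes apart. Pvalb, the cytosolic buffer, showed the largest difference among the members, 1.83 ± 0.19 (adjusted p = 1.11e-08). It had 223, 264 and 399 CPM in WT Dia, and the WT Quad range of 104 to 272 CPM reached into it.

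Within the limb, WT Gastroc was low for most members. In WT TA, 6 of 9 were higher than in WT Gastroc and none was lower, with 18.9% of 14831 genes called (11.5% higher and 7.32% lower). In WT Quad the same count of 6 was higher, with 14.6% called (9.31% higher and 5.27% lower). Against 1.5-fold, only the Pvalb call held in either comparison. Pvalb had 99.7, 118 and 208 CPM in WT TA and 15.0, 17.5 and 40.6 CPM in WT Gastroc, which did not overlap (log2 difference 2.57 ± 0.27, adjusted p = 1.73e-07). In WT Quad it had 104, 130 and 272 CPM, again above every WT Gastroc library (2.79 ± 0.28, adjusted p = 1.07e-07). Casq1 was 0.92 ± 0.13 higher in WT TA and 0.84 ± 0.13 higher in WT Quad than in WT Gastroc, where it had 771 to 1274 CPM. Atp2a1 differed by 0.86 ± 0.10 in WT TA and 0.79 ± 0.10 in WT Quad from WT Gastroc, where it had 3497 to 5190 CPM, with no overlap in either comparison.

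Casq2 was likewise higher in WT TA (0.58 ± 0.08) and WT Quad (0.42 ± 0.08) than in WT Gastroc, and Cacna1s by 0.50 ± 0.10 and 0.43 ± 0.10. Ryr1 was the weakest of the calls, at 0.38 ± 0.13 for WT TA (adjusted p = 0.0314) and 0.42 ± 0.13 for WT Quad (adjusted p = 0.0218). The Ryr1 call for WT TA was lost in a fit of all 48 libraries (adjusted p = 0.0581) and in 8 of 24 fits without 1 WT library. That for WT Quad was lost in 4 of 24 such fits, without WT Quad column 0, 1 or 5 or WT Gastroc column 3 (highest adjusted p = 0.0644). The Casq2 call for WT Quad was lost in the fit of all 48 libraries (adjusted p = 0.0547). Ryr3, Atp2a2 and Sln did not pass in either comparison. Their log2 differences of WT TA minus WT Gastroc had 95% intervals of -0.12 to 0.14 for Ryr3, -0.26 to 0.09 for Atp2a2 and -0.16 to 0.16 for Sln. The ratio of Atp2a1 to Atp2a2 per kb, 26.8 as the median of WT TA and 25.04 of WT Quad, was 12.6 in WT Gastroc.

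Between WT Quad and WT TA, none of the 9 members passed, with 2.06% of genes called. The widest 95% interval was that of Pvalb, from -0.28 to 0.72 on the log2 scale, and the narrowest was that of Ryr3, from -0.20 to 0.06. Casq2 had an unadjusted p of 0.0472 in edgeR (adjusted p = 0.513).

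**Figure D1:**
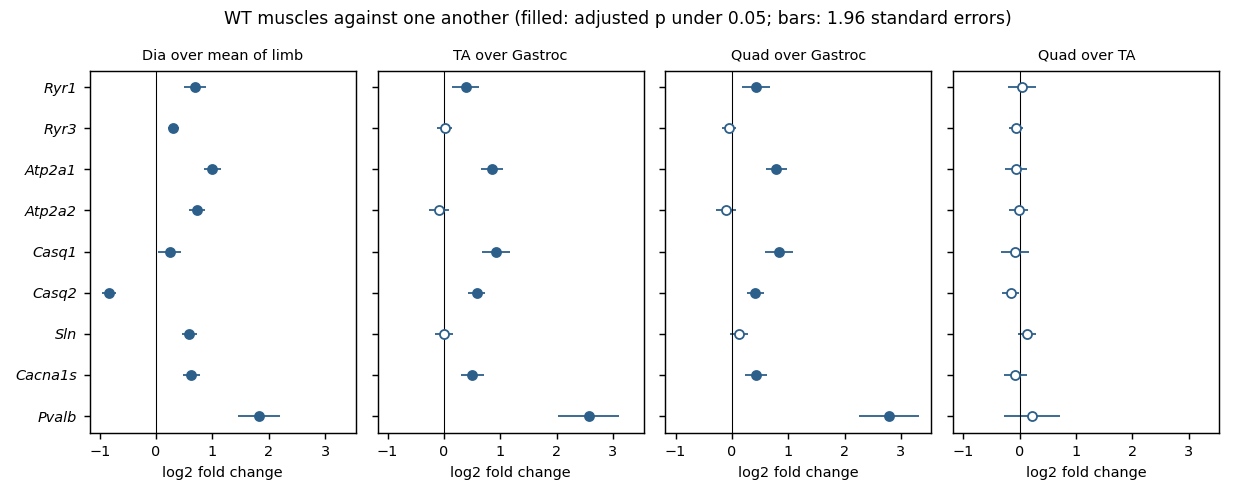
Log2 fold changes of the 9 genes between WT muscles, with 95% intervals as bars and filled points for an adjusted p under 0.05 in edgeR. Casq2 is the 1 gene left of 0 for Dia, at -0.83, while Pvalb stands at 2.57 and 2.79 for TA and Quad over Gastroc.

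Markers of other cells and of fibre type also differed between the WT muscles. All 8 fast-fibre genes passed as higher in WT Dia than in the limb, against 29.9% of all genes. In WT TA and in WT Quad, 7 of 8 passed as higher than in WT Gastroc, against 11.5% and 9.31% of all genes. The 8 genes summed to 22649, 27808 and 29674 CPM (lowest, median, highest) in WT Dia. Their medians were 23083 CPM in WT TA, 23008 CPM in WT Quad and 13251 CPM in WT Gastroc. The 5 skeletal muscle identity genes had medians of 30227, 25918, 25584 and 16546 CPM in the same order. Fewer muscle fibres in a sample and less RNA per fibre cannot be told apart in such bulk libraries, and the part of either in the low WT Gastroc values was not tested. The 4 Schwann cell markers had medians of 85.8 CPM in WT TA and 171 CPM in WT Quad, against 252 CPM in WT Gastroc. Their sums overlapped, at 48.1 to 101, 65.0 to 317 and 72.9 to 373 CPM in the same order. Of these markers, 4 of 4 passed as lower in WT TA than in WT Gastroc, against 7.32% of all genes. The 4 fibroblast markers had medians of 10353 CPM in WT TA, 8459 CPM in WT Quad and 11879 CPM in WT Gastroc, with overlapping sums. Slow-fibre genes had medians of 4726 CPM in WT Dia and 2675 to 3482 CPM in the WT limb muscles. Casq2, named above as the form of slow fibres and heart, went the other way and was lower in WT Dia. Liver transcripts were far higher in WT Dia, with a median sum of 1765 CPM against 8.07 to 11.4 CPM in WT limb muscles, and so were the mesothelial ones, at 267 CPM against 0.648 to 1.01 CPM. These sums cover unlike sets, with 6 liver and 3 mesothelial genes listed for Dia. The limb muscles had 5 liver genes each, and 2 mesothelial genes in Quad and Gastroc and 1 in TA. Smooth muscle markers passed as higher in WT Dia for 4 of 5 (median log2 difference 1.15), neuronal ones for 4 of 4 (1.71) and endothelial ones for 4 of 5 (0.31). The share of all genes called higher there was 29.9%. The smooth muscle list holds Des, which is also on the skeletal muscle identity list. The part of these markers in the members' differences was not tested. Heart markers were low, at a sum of 6.64 to 19.1 CPM in WT Dia and 10.98 to 37.3 CPM in WT limb muscles. Their sums also cover unlike sets, of 4 genes in Dia, 3 in TA and 2 in Quad and Gastroc.

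Other calcium genes were read from 6 lists by function. Of their 76 tested genes, 50 passed for WT Dia over the WT limb mean, against 57% of all genes, and with most genes called these counts set no list apart. Of 22 partners of the release complex and the triad, where tubule and reticulum meet, 12 were higher and 5 lower in WT Dia than in the limb. The 4 higher ones with the smallest p were Mtm1, a phosphoinositide phosphatase needed for triad upkeep (1.15 ± 0.12), Ryr2, the cardiac ryanodine receptor (1.55 ± 0.21), Tmem38b, a counter-ion channel of the reticulum (0.57 ± 0.09), and Trdn, which codes for triadin and ties calsequestrin to the release channel (0.62 ± 0.10). Ryr2 was rare, at 3.38 ± 1.60 CPM in WT Dia, against 0.906 to 1.35 CPM as the means of WT limb muscles. The 4 lower ones were Fkbp1a, a ryanodine receptor binding protein (-0.29 ± 0.04), Bin1, which shapes the tubules (-0.36 ± 0.06), Jph2, a junctophilin that bridges the membranes (-0.49 ± 0.08), and Cacng1, a subunit of the voltage sensor (-0.42 ± 0.07). The adjusted p of these 8 genes ran from 7.57e-09 to 2.77e-05 in edgeR.

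Of 6 pump and regulator genes tested, Vapb, a reticulum membrane protein (0.28 ± 0.04) and Atp2a3, the pump SERCA3 of non-muscle cells (0.40 ± 0.10), were higher in WT Dia and none was lower. Pln, whose product phospholamban inhibits SERCA2, was not analysed here between muscles, and had 0 to 1.01 CPM in WT Dia. Store entry and extrusion gave 2 higher and 4 lower of 13. Stim1, the calcium sensor of the reticulum (0.30 ± 0.07), and Slc8a1, the cardiac sodium-calcium exchanger (0.66 ± 0.21), were higher. Stim2, a relative of Stim1 (-0.85 ± 0.10), Slc8a3, another sodium-calcium exchanger (-1.62 ± 0.26), and the entry channel gene Orai2 (-0.50 ± 0.10) were among the lower ones.

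Among 8 genes of mitochondrial uptake, Mcur1, a regulator of the uniporter (0.48 ± 0.05), Ccdc109b, also known as Mcub, which codes for a subunit that dampens the uniporter (0.98 ± 0.15), and Slc8b1, the mitochondrial exchanger (0.40 ± 0.08), were higher in WT Dia. Of 10 other buffers, S100a1, a calcium-binding protein of striated muscle that acts on the release channel and the pump, was higher (1.15 ± 0.09) and 5 were lower. Rcn2 (-0.66 ± 0.05), Calu (-0.32 ± 0.04) and Rcn1 (-0.40 ± 0.08), which code for binding proteins of the secretory pathway, and the calmodulin gene Calm3 (-0.39 ± 0.07) led the lower ones. S100a1 had 21.4 ± 2.54 CPM in WT Dia and means of 8.85 to 10.4 CPM in the WT limb muscles. Of 17 genes of calcium-dependent signalling, 7 were higher, led by the calcineurin inhibitor Rcan2 (1.30 ± 0.08), the kinase subunits Camk2b (0.62 ± 0.09) and Camk2g (0.32 ± 0.06) and the calcineurin target Nfatc1 (0.46 ± 0.09). Another 8 were lower, led by Camk2d (-0.47 ± 0.04), Nfatc2 (-0.65 ± 0.08), Camk2a (-0.99 ± 0.15) and the calcineurin subunit Ppp3r1 (-0.22 ± 0.04).

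Of the 76 tested genes of these lists, 30 passed for WT TA over WT Gastroc, against 18.9% of all genes, and 24 for WT Quad over WT Gastroc, against 14.6%. In each comparison 1 of them was lower. Release partners gave 11 higher and 0 lower of 22 in each comparison. Asph, which codes for junctin among other products, was 0.82 ± 0.07 higher in WT TA and 0.63 ± 0.07 in WT Quad, and Trdn 0.93 ± 0.13 and 0.77 ± 0.13. Jph1, the main junctophilin of skeletal muscle, differed by 0.63 ± 0.11 in WT TA and 0.58 ± 0.11 in WT Quad. The fourth was Jph2 for WT TA (0.54 ± 0.10) and Tmem38a, a counter-ion channel of muscle, for WT Quad (0.52 ± 0.10). Ryr2 and Atp2a3 did not pass in either comparison. Of the pump and regulator genes, Vapb was the 1 called, at 0.29 ± 0.05 for WT TA and 0.27 ± 0.05 for WT Quad.

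Store entry and extrusion genes gave 5 higher of 13 for WT TA, led by Stim1 (0.68 ± 0.08), Orai2 (0.49 ± 0.11), Orai1 (0.33 ± 0.08) and Stim2 (0.41 ± 0.11). For WT Quad 3 were higher, namely Orai1, the channel opened by Stim1 (0.47 ± 0.08), Stim1 (0.53 ± 0.08) and the plasma membrane pump gene Atp2b3 (0.66 ± 0.22). In mitochondrial uptake, Smdt1, Mcur1, Ccdc109b and Slc8b1 were higher in WT TA by 0.25 to 0.79, and Mcur1 and Smdt1 in WT Quad by 0.20 and 0.23. Among the buffers, Sypl2, a triad membrane protein also called mitsugumin 29, was higher by 1.00 ± 0.17 in WT TA and 0.85 ± 0.17 in WT Quad, and Rcn1 was lower in WT Quad (-0.40 ± 0.09). Signalling genes gave 7 higher and 1 lower of 17 for WT TA and 5 higher and 0 lower for WT Quad. Myoz2, which codes for a calcineurin-binding protein of the Z-disc, was higher by 0.74 ± 0.07 in WT TA and 0.50 ± 0.07 in WT Quad, and Camk2b by 0.91 ± 0.11 and 0.90 ± 0.11. Ppp3r1 (0.37 ± 0.05) and Ppp3ca (0.33 ± 0.05) followed in WT TA, and Myoz1 (0.56 ± 0.09) and Ppp3ca (0.31 ± 0.05) in WT Quad, while Rcan2 was lower in WT TA (-0.41 ± 0.11). Between WT Quad and WT TA, Ccdc109b was lower (-0.80 ± 0.19) and Rcan2 higher (0.46 ± 0.11) in WT Quad, and no other gene of the lists passed.

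The KO comparison in single muscles gave no call for any member. In KO against WT Quad, 0% of 14710 genes were called, so no gene at all passed. The share was 0.0973% in TA, 0.157% in Gastroc and 0.0069% in Dia. DESeq2 on the same counts called 71, 117, 94 and 29 genes in Quad, TA, Gastroc and Dia, and none of the 9 members was among them. At an unadjusted p under 0.05, edgeR gave 1 member in Quad, 3 in TA, 1 in Gastroc and 0 in Dia, against 6.93%, 7.59%, 6.7% and 4.17% of all genes. The KO and WT ranges overlapped for every member in every muscle. For the 7 members other than Pvalb and Sln, the log2 changes lay between -0.19 and 0.16 in the 4 muscles. The authors' deposited table gave no member an adjusted p under 0.165, the value of Pvalb in TA.

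**Figure D2:**
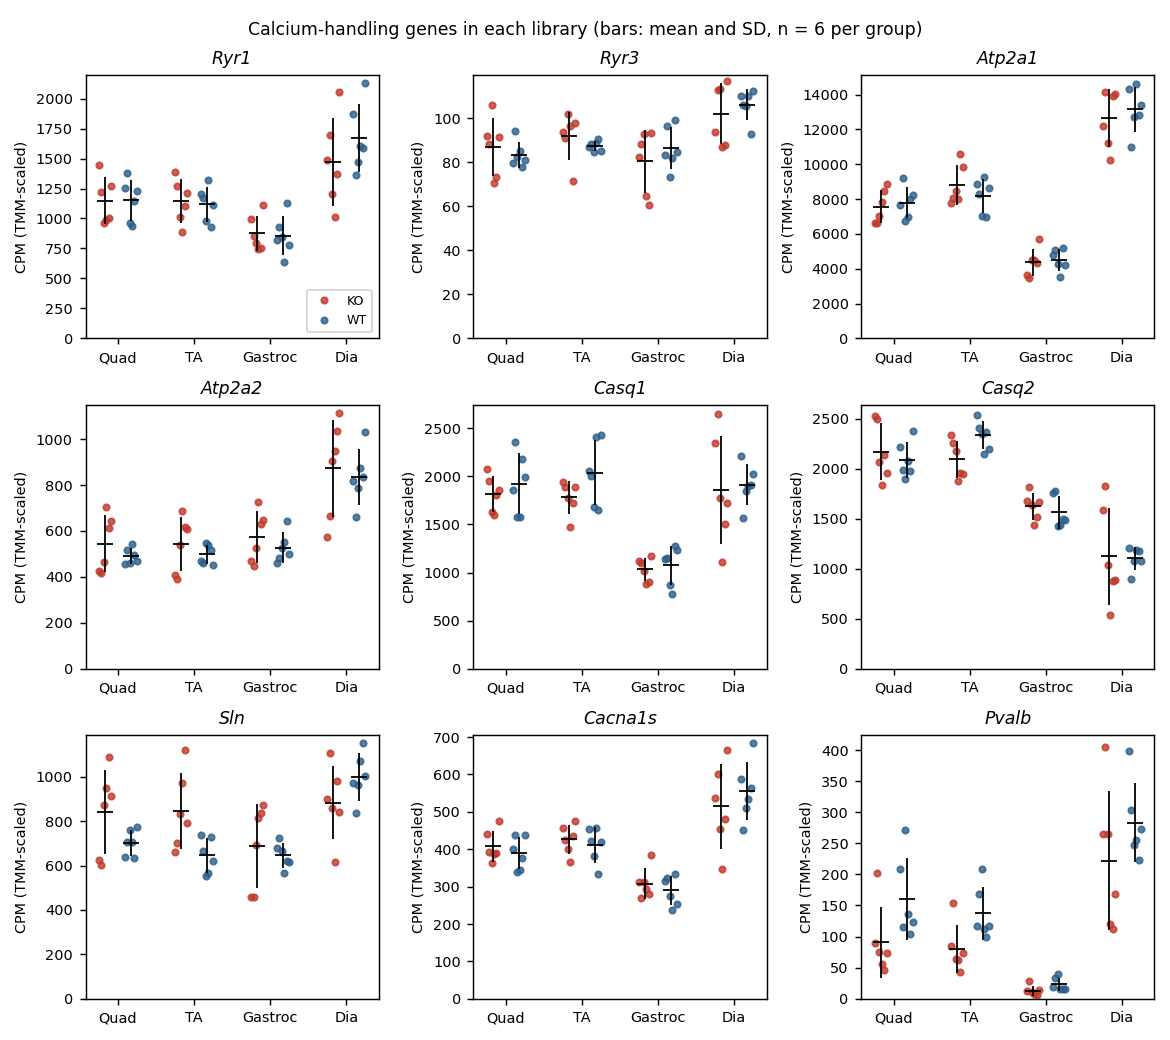
CPM of each gene in each of the 48 libraries, with KO left of WT for each muscle and mean and SD as bars (n = 6). Atp2a1, Casq1 and Pvalb have their lowest mean in Gastroc and Casq2 in Dia, in both genotypes, and KO and WT points overlap throughout.

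Pvalb had the largest differences between genotypes. In Quad it had 46.5, 74.7 and 202 CPM as lowest, median and highest in KO, against 104, 130 and 272 CPM in WT. In TA the values were 42.6, 68.4 and 154 CPM in KO, against 99.7, 118 and 208 CPM in WT. In Gastroc they were 6.22, 11.3 and 28.9 CPM in KO, against 15.0, 17.5 and 40.6 CPM in WT. In each of these muscles 5 of 6 KO libraries lay below every WT library, and KO column 1 was the exception. The log2 changes were -0.81 ± 0.33 in Quad (unadjusted p = 0.0248, adjusted p = 0.612, edgeR), -0.78 ± 0.26 in TA (0.00849 and 0.396) and -0.82 ± 0.34 in Gastroc (0.0279 and 0.639). Without KO column 1 they were -1.22, -1.07 and -1.21, with adjusted p of 0.144, 0.0762 and 0.166. In Dia, KO had 111, 216 and 404 CPM against 223, 264 and 399 CPM in WT, with 3 of 6 KO libraries below every WT library (-0.35 ± 0.28, adjusted p = 0.9996).

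Sln differed the other way in the limb. In TA it had 659, 813 and 1119 CPM in KO, against 555, 644 and 737 CPM in WT, and all 6 KO libraries were above the WT median. The log2 change was 0.39 ± 0.12 (unadjusted p = 0.00566, adjusted p = 0.365, edgeR). In Quad it had 604, 891 and 1089 CPM in KO, against 634, 707 and 772 CPM in WT (0.27 ± 0.13, adjusted p = 0.737). The 4 KO libraries above every WT library of Quad were columns 2 to 5, and columns 0 and 1 were below all of WT. In Gastroc, KO columns 0 and 1 had 459 and 457 CPM and the other 4 had 693 to 871 CPM, against 567 to 724 CPM in WT (0.09 ± 0.15, adjusted p = 0.979). In Dia the change was -0.18 ± 0.12, and 1 of 6 KO libraries was above the WT median.

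Casq2 in TA had 1881, 2068 and 2340 CPM in KO, against 2152, 2357 and 2542 CPM in WT, and no KO library was above the WT median (-0.16 ± 0.07, unadjusted p = 0.0407, adjusted p = 0.629, edgeR). Casq1 in TA was also below the WT median in all 6 KO libraries, with 1475 to 1943 CPM in KO and 1646 to 2430 CPM in WT (-0.19 ± 0.10, adjusted p = 0.750). Beside these values in TA, the 7 slow-fibre genes summed to 1983 to 2675 CPM in KO and 3272 to 3654 CPM in WT, with no overlap. Of the 7, 4 passed the test, all lower in KO, against 0.0973% of all genes called. All 7 had an unadjusted p under 0.05, against 7.59% of all genes. The part of fibre type in the members' values was not tested. For Atp2a1 the 95% interval of the KO change was -0.22 to 0.15 in Quad, -0.08 to 0.30 in TA, -0.28 to 0.19 in Gastroc and -0.27 to 0.16 in Dia. Ryr1 had its widest interval in Dia, -0.50 to 0.14, and Cacna1s likewise, -0.39 to 0.18. For Ryr3 the authors' deposited table also held an exon-level value in Quad and Dia, for an exon at chr2:112712217-112712544 (mm10), with adjusted p of 1 and 0.489.

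**Figure D3:**
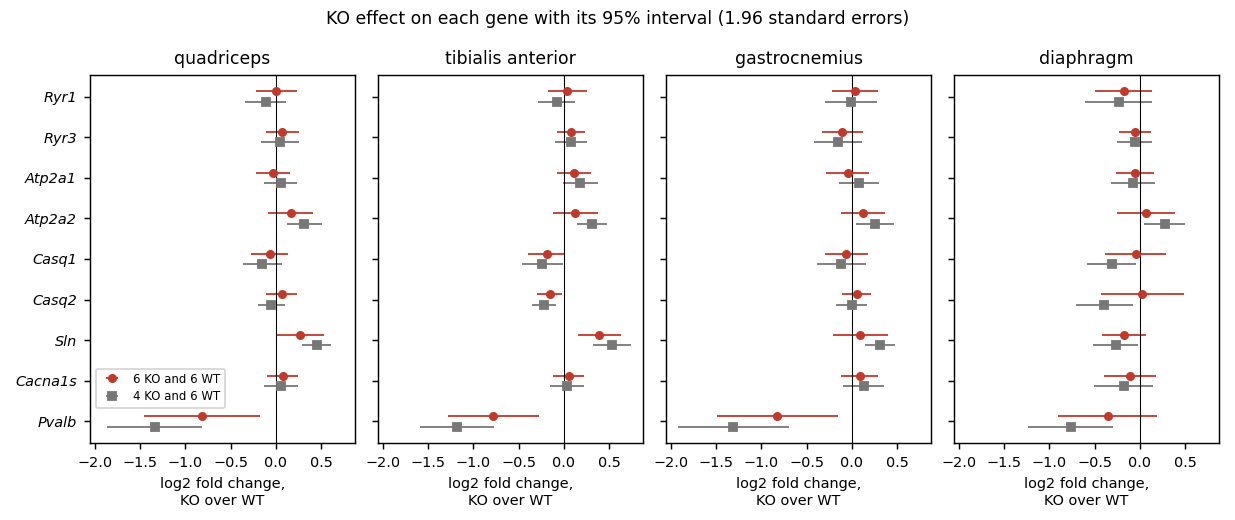
Log2 fold changes of KO over WT in each muscle with 95% intervals, for all libraries (red circles) and without KO columns 0 and 1 (grey squares). Pvalb lies at -0.81, -0.78 and -0.82 in Quad, TA and Gastroc with all libraries, and at -1.34, -1.18 and -1.31 without these columns.

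Across the 4 muscles, a single KO effect was fitted to all 48 libraries with muscle as a term. Pvalb was the 1 member called, against 7.64% of 15090 genes (4.97% higher and 2.67% lower). It fell by 0.69 ± 0.17 on the log2 scale in KO (adjusted p = 0.00659, edgeR), with the KO mean below the WT mean in 4 of 4 muscles. In the same fit 5 of 7 slow-fibre genes were lower in KO (median -0.28 on the log2 scale), as were 3 of 5 endothelial markers (median -0.17), and of 8 fast-fibre genes 2 were higher and 2 lower. Their part in the Pvalb value was not tested. This fit treats libraries that may share an animal as independent. With the column number within a genotype as a block, in place of the unknown animal, the change of Pvalb was -0.75 and its call ended (adjusted p = 0.0597, limma voom), and 67 genes were called. The same tool without the block gave 1104 genes and an adjusted p of 0.00122 for Pvalb. The consensus correlation of same-numbered libraries was 0.377. WT column numbers may not line up across muscles, since the lowest WT Alb stood in column 1 of Quad (0.404 CPM), column 3 of TA (0.989 CPM) and column 4 of Gastroc (0.603 CPM), so that the block may join different WT animals. The 95% interval of the shared effect was -0.02 to 0.25 for Atp2a2 and -0.01 to 0.29 for Sln, and within ±0.23 for the other 6 members.

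Of the 76 other calcium genes tested in this shared fit, 2 passed, a smaller share than the 7.64% of all genes. Camk2g, a subunit of calcium-calmodulin kinase II, was lower in KO (-0.17 ± 0.04, adjusted p = 0.00659), and Nfatc2, a transcription factor activated by calcineurin, was higher (0.26 ± 0.08, adjusted p = 0.0408). Neither passed in a single muscle, where no gene of the 6 lists was called, nor with the block over all 48 libraries. The count in the shared fit depended on the setting, from 0 to 28 of these genes, while the count of all genes called ran from 67 to 4698. With the block and without KO columns 0 and 1, 12 of them were called, beside 2333 genes of all kinds. Ryr2 changed by -0.45 ± 0.21 in Gastroc (adjusted p = 0.744) and by 0.31 ± 0.28 in Quad, -0.06 ± 0.20 in TA and 0.13 ± 0.50 in Dia. Atp2a3 gave -0.33 ± 0.12 in Gastroc (adjusted p = 0.574), -0.22 ± 0.10 in Quad, 0.03 ± 0.11 in TA and -0.10 ± 0.17 in Dia. Pln could be tested in TA, at -0.28 ± 0.24 (adjusted p = 0.860).

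Whether the KO effect was equal in the 4 muscles was tested directly. No member passed, with 0.0133% of genes called (252 genes, 1.67%, at an unadjusted p under 0.05), and Sln had an unadjusted p of 0.0469 (adjusted p = 1, edgeR). For the KO effect in Dia minus the mean of the limb muscles, no gene passed in edgeR (460 genes, 3.05%, at an unadjusted p under 0.05), 2 passed in DESeq2, and Sln was at -0.43 ± 0.17 (unadjusted p = 0.0145, adjusted p = 0.9998).

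Results for several members depended on KO columns 0 and 1. These libraries had the lowest Atp2a2 of the KO group in all 4 muscles, at 425 and 419 CPM in Quad against 466 to 703 CPM in the other 4 KO libraries. They had the lowest Sln in Quad, TA and Gastroc, and the highest Casq2 in all 4 muscles. Casq2 in Dia had 1590 and 1825 CPM there, while KO columns 2 to 5 had 532 to 1039 CPM, against 900 to 1207 CPM in WT. Casq1 in Dia had 2353 and 2653 CPM in these columns and 1114 to 1777 CPM in the others, against 1571 to 2217 CPM in WT. The WT Dia libraries lay between the KO subsets for both genes, with some overlap.

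Without both columns, 133 genes were called in Quad, 219 in TA, 108 in Gastroc and 72 in Dia, and 4698 in the shared fit. Sln then passed in Quad (0.45 ± 0.08, adjusted p = 0.0295, edgeR) and TA (0.53 ± 0.11, adjusted p = 0.0283), and Pvalb in Quad (-1.34 ± 0.27, adjusted p = 0.0384) and TA (-1.18 ± 0.21, adjusted p = 0.0191). In Gastroc neither passed, at 0.31 ± 0.09 for Sln (adjusted p = 0.126) and -1.31 ± 0.31 for Pvalb (adjusted p = 0.0844). In the shared fit 5 of the 9 members then passed, among the 4698 genes called, so many genes of any kind passed. With all libraries, 15090 genes had been tested in that fit. Of the 5 members, Pvalb (-1.14 ± 0.15), Casq1 (-0.21 ± 0.07) and Casq2 (-0.17 ± 0.06) were lower in KO, and Atp2a2 (0.28 ± 0.05) and Sln (0.26 ± 0.07) higher. Their adjusted p ran from 3.53e-07 to 0.0200. With the column number as a block as well, 2333 genes were called in the shared fit. Among the members, Pvalb (-1.10, adjusted p = 3.12e-05, limma voom) and Atp2a2 (0.28, adjusted p = 0.00315) passed there. The calls of Sln, Casq2 and Casq1 ended, with adjusted p of 0.119, 0.124 and 0.127. The KO effect on Sln in Dia minus that in the limb was -0.70 ± 0.13 without these columns (adjusted p = 0.0162, edgeR), and -0.72 with the block (adjusted p = 0.000933, limma voom). The columns were chosen for liver transcripts among KO libraries only, with results of these libraries known. The part of that RNA in the members' values was not tested.

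**Figure D4:**
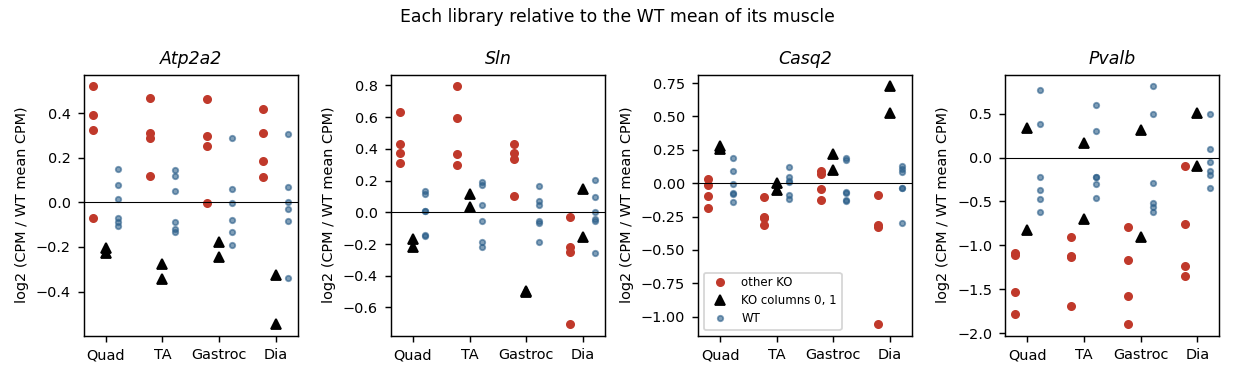
Each library as log2 of its CPM over the WT mean of its muscle, with KO columns 2 to 5 as red circles, KO columns 0 and 1 as black triangles and WT as blue circles. The triangles are the lowest KO points for Atp2a2 in all 4 muscles (425 and 419 CPM in Quad) and the highest for Casq2 (1590 and 1825 CPM in Dia).

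Spread among KO libraries was larger than among WT libraries for most members. The coefficient of variation was higher in KO in 28 of 36 gene and muscle combinations, against 65.1% of 55798 combinations over all genes with a mean of at least 1 CPM. In Dia this held for 9 of 9 members, against 68.0% of genes. Casq2 in Dia varied by 43.2% in KO and 10.4% in WT, and Atp2a2 in Quad by 22.6% in KO and 7.19% in WT. KO Dia column 3 had the lowest Ryr1, Ryr3, Cacna1s, Atp2a1, Casq1, Casq2 and Sln of its group, but not the lowest Atp2a2 or Pvalb. It also had the highest heart markers, 96.9 CPM against 6.19 to 24.7 CPM in the other KO Dia libraries. Without it, the Dia change of Casq2 was 0.16 (adjusted p = 0.9999, edgeR), and the part of the heart markers was not tested.

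Isoform ratios within a library do not depend on library scaling. Atp2a1 over Atp2a2 per kb had medians of 19.8 in KO Dia and 24.9 in WT Dia. In KO Dia, columns 0 and 1 were at 32.5 and 32.3 and the other 4 at 16.4 to 20.5, while WT Dia ran from 19.8 to 26.6. The corresponding medians were 21.9 in KO Quad and 25.04 in WT Quad, 25.3 in KO TA and 26.8 in WT TA, and 11.9 in KO Gastroc and 12.6 in WT Gastroc. Casq1 over Casq2 had medians of 2.40 in KO Dia and 2.43 in WT Dia, and 0.863 in KO Gastroc and 0.909 in WT Gastroc, so the medians lay close together. In KO Dia, columns 0 and 1 were at 2.07 and 2.04 and columns 3 and 5 at 2.94 and 2.73, while WT Dia ran from 2.24 to 2.65. Ryr1 over Ryr3 had medians of 13.5 in KO Gastroc and 11.2 in WT Gastroc, with overlapping ranges of 9.92 to 14.3 and 8.98 to 13.2.

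**Figure D5:**
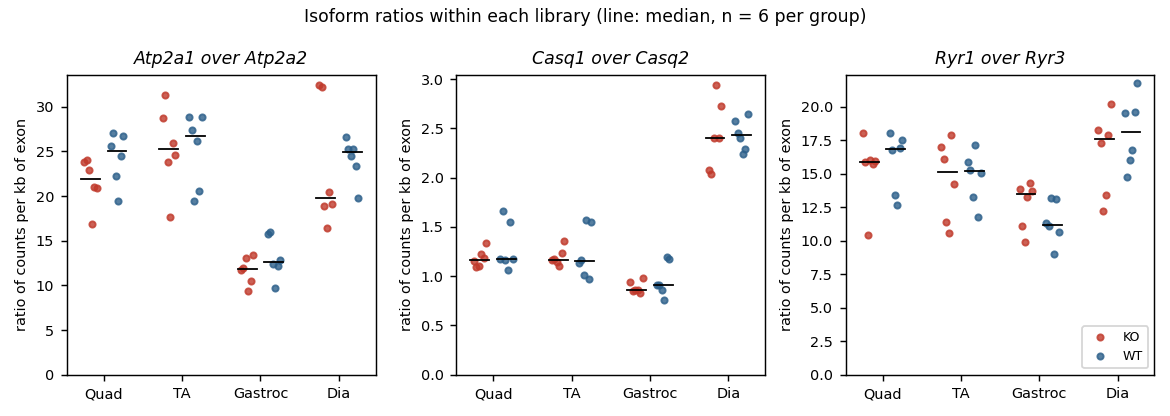
Ratios of counts per kb of exon within each library, KO left of WT, with the median as a line (n = 6 per group). Gastroc is low for Atp2a1 over Atp2a2 in both genotypes (11.9 in KO, 12.6 in WT), and Dia is high for Casq1 over Casq2 (2.40 in KO, 2.43 in WT).

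Ratios of mean CPM between muscles are given for both genotypes, with no test in the KO libraries. Casq2 in KO Dia was 0.573 times the KO limb mean, and in WT Dia 0.553 times the WT limb mean. Atp2a1 was 1.83 times the limb mean in KO Dia and 1.93 times in WT Dia. For Sln the ratios were 1.12 in KO Dia and 1.504 in WT Dia, and the KO Dia range of 614 to 1110 CPM lay within that of the KO limb libraries, 457 to 1119 CPM. Pvalb in TA was 6.09 times the Gastroc mean in KO and 5.94 times in WT.

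Over the 48 libraries, the gene whose log2 CPM was most like that of Ryr1 was Sptb, a spectrin (Pearson r = 0.958), and Cacna1s came next (0.951), which is a member itself. Cacna1s in turn was most like Sptb (0.958). Among the genes most like Atp2a1 was Slc25a4, which codes for a mitochondrial carrier (0.977), and Pvalb was most like the respiratory chain genes Ndufs3 (0.936) and Ndufs8 (0.927) and Mybpc2, the fast myosin-binding protein C (0.928). Casq1 was most like Sypl2 (0.963) and Tnnc2, the fast troponin C (0.958), and Casq2 like Atp1b4 (0.963) and Nudt4 (0.940). Atp2a2 was most like Cd200 (0.915), Ryr3 like Nr1d2 (0.874) and Sln like Schip1 (0.814). These values are descriptions over libraries that share muscles and perhaps animals, with no test.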

How the data were processed

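Column headers and labels gave genotype and muscle. Per the labels, the stranded mRNA libraries were oligo dT selected. The authors' counts are raw alignments per gene over exons, per the file headers, on mm10, each read pair counted once. The submitters' processing notes name mm10 and Picard, and no source used here names the aligner. Deposited log2 ratios and scores, from which adjusted p-values were computed, are the authors' own and were only quoted. Columns of another kind, with the authors' exonic base pairs, gave the lengths. Another 96 columns of per-sample values were not used.

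Counts were fitted with edgeR 4.0.16 in R 4.3.3 (filterByExpr, TMM, quasi-likelihood F test), per muscle for KO over WT, over the 24 WT libraries for muscles, and over all 48 for shared and unequal effects. The fits were tried on simulated data drawn as independent libraries. Such data cannot show how libraries that share an animal affect the p-values of the shared fit. SE was taken from the fold change and its F statistic, and 95% intervals are normal ones from the SE. Likeness used log2 CPM with a prior count of 2. Alternatives used DESeq2 1.42.0 and limma 3.58.1. The members, lists and tests were chosen with earlier results of these data known. All members were named, with up to 4 genes past the test per list, direction and comparison by smallest p, Pln, Ryr2 and Atp2a3 always, and the genes most like each member. A few genes that this rule names are not reported here. The voom fits with a block (also without KO columns 0 and 1) and without one were added after the data were seen. RefSeq promoters are from GRCm38.p6.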

Additional observations from a re-analysis of the deposited data

Results flagged for a closer look

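Single libraries stood far from the other 5 of their group in 5 of the 72 combinations of gene and group tested with Dixon's criterion, and chance flags about 1 in 20. Pvalb was far above the rest in KO column 1 of 3 muscles. It had 202 CPM in KO Quad (others 46.5 to 90.2), 154 CPM in KO TA (others 42.6 to 84.3) and 28.9 CPM in KO Gastroc (others 6.22 to 13.4). Ryr3 was low in column 4 of KO TA, at 71.3 CPM (others 91.0 to 102), and in column 4 of WT Dia, at 92.9 CPM (others 106 to 112).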

How the results depend on the processing

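No paired analysis was possible because the count columns carry no replicate numbers of the labels, so the planned replicate block was not run. Counts per comparison under other settings were as follows. For KO against WT, DESeq2 called 71 genes in Quad, 117 in TA, 94 in Gastroc and 29 in Dia, 2 for Dia minus limb and 8 for unequal effects. Limma voom with quality weights called 17 in Quad, 35 in TA and 2 in Dia, and 570 for WT Quad against WT TA. A fit of all 48 libraries called 16 in Quad, 36 in Gastroc, 30 in Dia and 181 for WT Quad against WT TA. With Xist as a covariate 6 were called in Quad, 8 in TA and 2 in Dia. Quad gave 8 calls with upper-quartile factors and 7 without the filter on low counts. Without KO columns 0 and 1, 133, 219, 108 and 72 genes were called in Quad, TA, Gastroc and Dia, 4698 in the shared fit, 11 for Dia minus limb and 5 for unequal effects. Against 1.5-fold, 1987 genes were called for WT Dia against limb, 232 for TA and 104 for Quad against Gastroc, and 32 for Quad against TA. With the column number as a block, 67 were called in the shared fit, 19 for Dia minus limb, 14 for unequal effects and 474 for WT Quad against WT TA, and voom without the block called 1 for unequal effects. With the block and without KO columns 0 and 1, 2333 were called in the shared fit and 54 for Dia minus limb. Leaving out 1 library gave 0 to 2 genes in Quad, 4 to 26 in TA, 4 to 29 in Gastroc and 0 to 4 in Dia.

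Changes of sign were limited to members that did not pass. Without KO columns 0 and 1, KO changes were -0.11 (Quad), -0.079 (TA) and -0.0056 (Gastroc) for Ryr1, 0.054 (Quad), 0.081 (Gastroc) and 0.053 (shared) for Atp2a1, and -0.053 (Quad) and -0.39 (Dia) for Casq2. Dia minus limb was then -0.14 for Casq1 and -0.30 for Casq2. With the block as well these were -0.17 and -0.34, and the shared changes of Atp2a1 and Cacna1s were 0.053 and -0.0028. With voom, Casq2 was at -0.021 in Quad, -0.0060 in Gastroc and -0.14 in Dia, and at -0.0640 with and -0.0638 without the block for Dia minus limb. Ryr1 in Quad was at -0.030 with voom, -0.0029 with all 48 libraries and -0.0037 with upper-quartile factors, which put Ryr3 at -0.017 for WT TA over WT Gastroc. Xist as a covariate put Casq1 in Dia at 0.012. Leaving out 1 library, KO ranges were -0.069 to 0.064 (Quad), -0.023 to 0.10 (TA) and -0.049 to 0.13 (Gastroc) for Ryr1, and -0.084 to 0.020 (Quad) and -0.14 to 0.010 (Gastroc) for Atp2a1. In Dia they were -0.015 to 0.17 for Atp2a2, -0.17 to 0.060 for Casq1 and -0.16 to 0.16 for Casq2. For WT Quad over WT TA they were -0.052 to 0.011 for Atp2a2 and -0.019 to 0.093 for Ryr1, and for WT TA over WT Gastroc -0.029 to 0.057 for Ryr3 and -0.052 to 0.035 for Sln. The cause was not tested.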
